A study of Mus musculus with 15 samples.

Results

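The 47 mouse genes described here encode the machinery that copies nuclear DNA: 5 subunits of the origin recognition complex, 3 licensing factors, the 6 subunits of the MCM helicase, 8 helicase activators, 9 subunits of the replicative polymerases and primase, 6 genes of the sliding clamp and its loader, 5 genes of single-strand DNA binding and Okazaki fragment processing, 3 fork protection genes and 2 subunits of a chromatin assembly factor. They were listed by name and function, not by a measured value, with earlier results of these data known. All 47 were found among the 55536 genes measured, and all 47 passed the filter on low counts that left 17366 genes for testing. Each is annotated as protein coding, and their lowest value in any library was 2.80 CPM (counts per 1000000 of the library total as scaled by TMM).

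Poly(A) RNA of CD8+ T cells was sequenced in 15 libraries, 5 from each of 3 groups. All cells carried the OT-I transgenic receptor, which recognises an ovalbumin peptide, and came from OT-I mice (C57BL/6J) that the study lists on a Rag1-deficient or Rag2-deficient background. Naive cells were purified from OT-I mice without transfer. In the Ag group, OT-I cells were moved into C57BL/6J recipients, which received the peptide together with a rat control IgG, and in the Ag+Costim group the recipients received the peptide with agonist antibodies to OX40 and 41BB (CD137), which are costimulatory receptors of the TNF receptor superfamily. Per the labels, transferred cells were taken from spleen and lymph nodes on day 4 and sorted, while the study's methods give a somewhat earlier time, and no age, pooling or culture is given for single libraries, so p-values measure the spread between these libraries.

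Replication begins at origins. The origin recognition complex (ORC), Cdc6 and Cdt1 load the ring of Mcm2 to Mcm7 onto DNA in G1, and geminin (Gmnn) blocks Cdt1 afterwards so that each origin is used only once. The kinase Cdc7 with its activator Dbf4, together with Mcm10, Cdc45 and the GINS complex, turns the loaded ring into a moving helicase, and polymerase α-primase, δ and ε then copy the strands, with Pcna as the sliding clamp that replication factor C (Rfc1 to Rfc5) loads. Resting naive T cells keep most of these genes low and induce them when antigen drives the cells into division, in part through E2F transcription factors.

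Several libraries stood apart from others of their group. Total counts ran from 4865952 in Ag 3 to 25280667 in Naive 3, and the 47 genes took 30988 to 207278 counts per library. The share of reads that was counted was 51.9% to 53.6% in Ag 2, Ag 5 and the Ag+Costim libraries, 37.4% to 44.3% in Ag 1 and Ag 4, 38.2% to 46.8% in Naive 1 to 4 and 46.5% in Naive 5. The part of library quality in the results was not tested. Ag 3 stood apart with 16.9% of reads counted, and its summed erythroid marker level (10 genes) was 1319 CPM, whereas the Ag+Costim libraries spanned 5.45 to 38.9 CPM. Cd79a, a component of the B cell receptor, read 29.0, 106 and 40.3 CPM in Ag 1, Ag 3 and Ag 4 and no more than 5.21 CPM in every other library. The B cell list (10 genes) summed to 619 to 1573 CPM in Ag, 597 to 979.9 CPM in Naive and 559.9 to 846 CPM in Ag+Costim, sums to which Ighm gave the most counts in every library. Of the 9 B cell genes tested, 6 were called higher in Ag vs Naive (median log2 fold change 4.23), 2 in Ag+Costim vs Naive and none in Ag+Costim vs Ag. The myeloid list (12 genes) summed to 30.3 to 1143 CPM in Naive, with Naive 5 the highest, 98.7 to 341 CPM in Ag and 139 to 269 CPM in Ag+Costim, and no gene of these 3 lists was at 0 throughout a group. To the myeloid sum of Naive 5, S100a8 (433 CPM) and S100a9 (406 CPM) gave the most counts. Over the 15 libraries the sums of CD4 T cell markers (4 genes) read 3.93 to 34.4 CPM, NK cell markers (5 genes) 32.8 to 144 CPM and plasma cell markers (6 genes) 64.6 to 169.9 CPM, with Mzb1 at 0 in all Naive libraries. Xbp1 gave the most counts to the plasma cell sum in every library, and Eomes to the NK cell sum in all but Naive 4. The part of other cell types in the values below was not tested. The recorded library input was 1.40 for Ag 2 and 1.80 for Ag 5, with no unit given, and 7 to 10 for all other libraries. The CD8 T cell markers (6 genes), the check of the labelled cell type, summed to 3926 CPM or more in every library. Lane 2 carried every Ag library with 3 of the Ag+Costim libraries (1 to 3), and lane 3 carried the other 2 with every Naive library, so that Ag and Naive never shared a lane.

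Together the 47 genes accounted for 0.288%, 0.476%, 0.280%, 0.250% and 0.866% of counts in Naive 1 to 5. The share was 0.296%, 1.01%, 0.822%, 0.294% and 1.01% in Ag 1 to 5, and 1.05%, 1.06%, 1.05%, 1.26% and 1.18% in Ag+Costim 1 to 5. By this share the Ag+Costim libraries were all high, above every Ag and Naive library. On TMM-scaled totals the separation from Ag did not hold, since the sum of Ag 5 (11348 CPM) exceeded that of Ag+Costim 1 (10991 CPM). Ag 1 and Ag 4 sat among the low Naive libraries, Ag 2, Ag 3 and Ag 5 near the Ag+Costim libraries, and Naive 5 among the high Ag libraries. Ag 1, Ag 4 and Naive 5 thus lay on the side of the other group, and the columns of Ag 1 and Naive 5 were identical in a deposited FPKM table, though not in the counts used here. Whether any library carries the label of another was not tested, and the values without Ag 1 and Naive 5 are given beside each comparison. In these bulk libraries, fewer cells in cycle and less replication RNA per cell cannot be told apart.

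**Figure D1:**
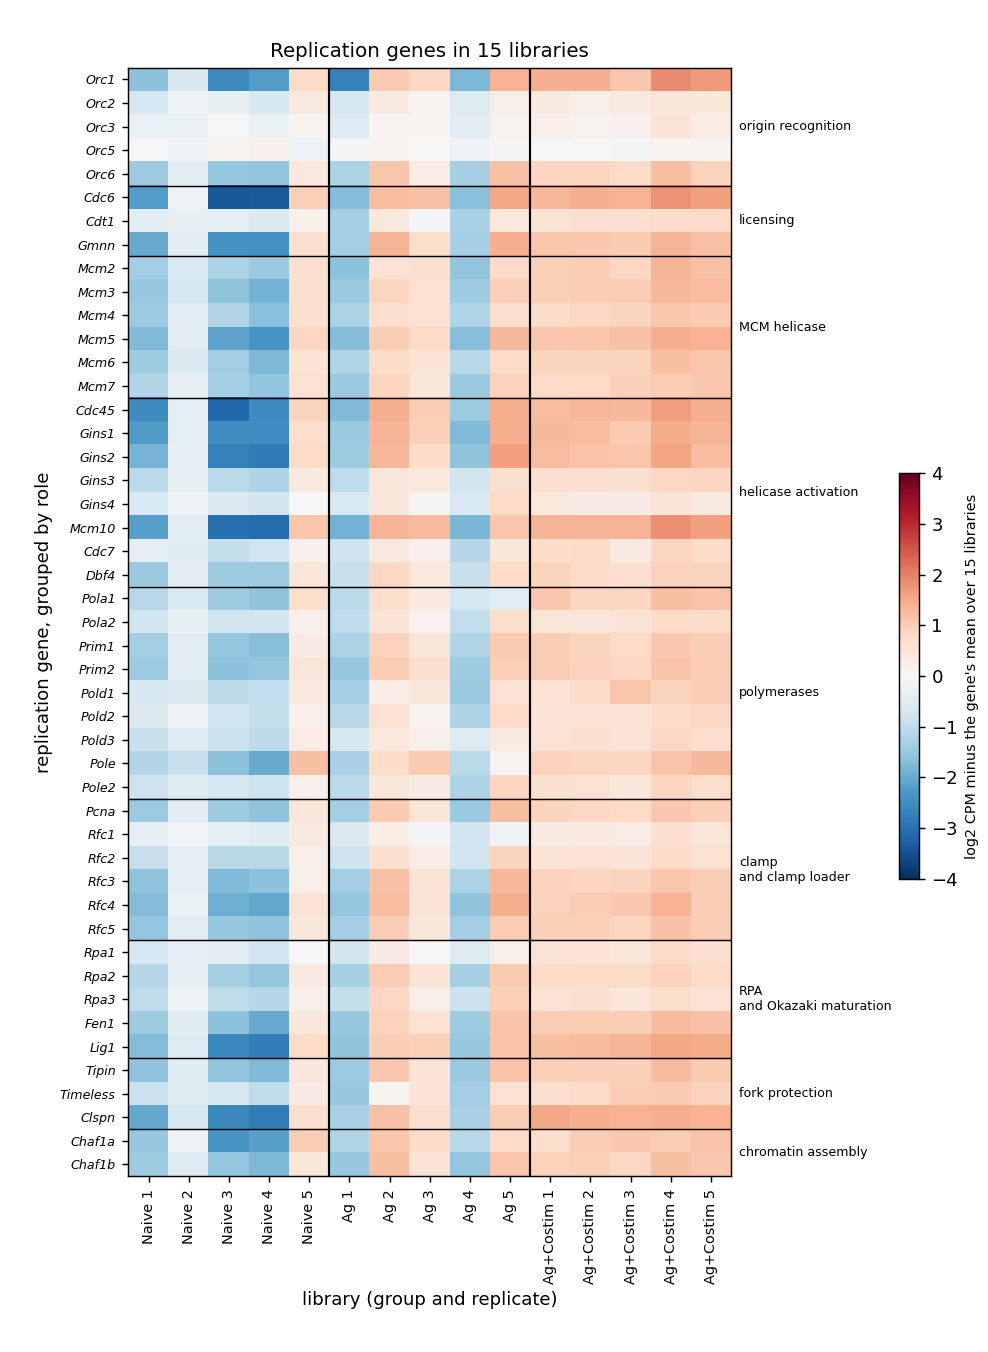
Level of each of the 47 replication genes (rows, grouped by role) in each of the 15 libraries (columns), as log2 CPM minus the gene's own mean over the 15 libraries, with red above and blue below that mean. Ag 1 and Ag 4 are mostly blue and Naive 5 mostly red, while the row of Orc5 is close to white throughout.

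This library pattern was shared by nearly every gene of the set. Ag 1 and Ag 4 were the 2 lowest Ag libraries for 47 of 47 replication genes, against 30.9% of all genes tested. Naive 5 was the highest Naive library for 46 of 47, the exception being Orc5 (all genes, 35.3%), and Naive 2 came next for 44 (all genes, 22.6%). Among the Ag+Costim libraries the 2 from lane 3 lay above the 3 from lane 2 for 37 of 47 (all genes, 16.2%), and the part of the lane in this was not tested. The median coefficient of variation of the 47 genes was 10.2% in Ag+Costim, 64.0% for Ag and 71.0% for Naive, and the median ratio of the highest to the lowest library was 1.27, 5.15 and 4.23 in that order.

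A list of 24 genes of mitosis, the later step of division, was summed in the same libraries for reference. It read 4959.9 CPM in Naive 5 and 326 to 1939 CPM in Naive 1 to 4. In Ag 1 and Ag 4 it was 1211 and 1182 CPM, above Naive 1, 3 and 4, whereas the replication sum of those 2 libraries, 2668 and 2748 CPM, was close to that of Naive 1 (2686 CPM) and Naive 3 (2637 CPM). For mitosis Ag 2 (6629 CPM) and Ag 5 (6808 CPM) lay within the Ag+Costim range of 6507 to 7694 CPM, and for replication Ag 5 (11348 CPM) did, in a range of 10991 to 13449 CPM.

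**Figure D2:**
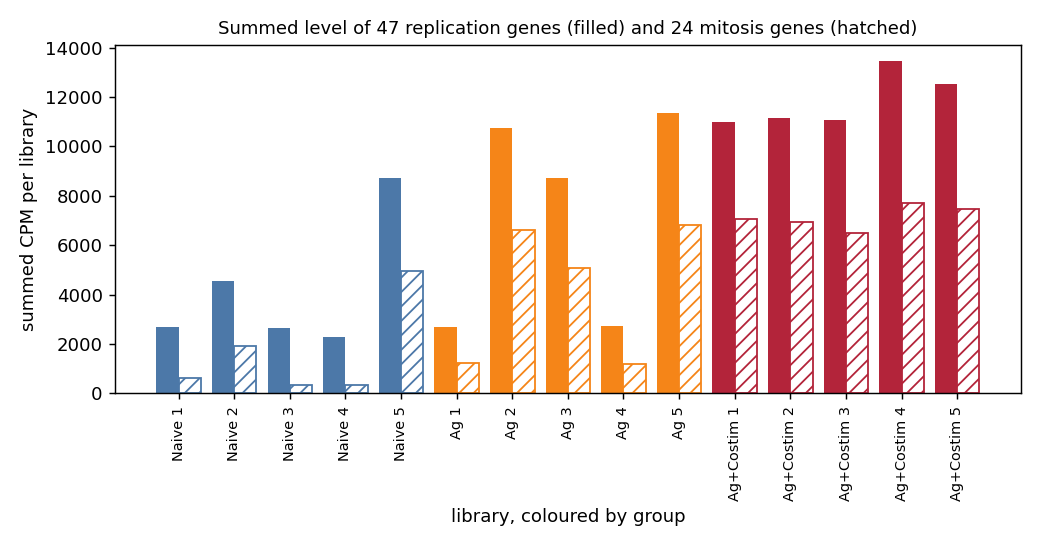
Summed CPM per library of the 47 replication genes (filled bars) and of 24 mitosis genes (hatched bars), coloured by group, on an axis that starts at 0. The replication sum runs from 2277 CPM in Naive 4 to 13449 CPM in Ag+Costim 4, with Naive 5 high and Ag 1 and Ag 4 low for their groups.

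Costimulated cells were compared with naive cells, which differ from them in the transfer as well as in the stimulus. Here 43 of 47 replication genes rose and none fell (edgeR quasi-likelihood test, Benjamini-Hochberg FDR under 0.05), where 21% of all genes tested were higher. The fitted log2 fold changes of the 47 genes ranged from 0.044 to 2.28 with a median of 1.56 (2.95-fold), beside a median of -0.076 over all genes. The steepest were Clspn, whose product claspin links the fork to the checkpoint kinase Chk1, at 2.28 ± 0.66 (FDR 0.0171) (± standard error), and Orc1, the largest ORC subunit, at 2.23 ± 0.74 (FDR 0.0283). The 4 genes not called were Orc5 at 0.044 ± 0.094 (FDR 0.709), Mcm10 at 2.1 ± 0.82 (FDR 0.0504), Pole at 1.41 ± 0.58 (FDR 0.0609) and Chaf1a at 1.48 ± 0.61 (FDR 0.0589). Every Ag+Costim library exceeded every Naive library for 42 of 47 genes, against 22.7% of all genes; the 5 that overlapped were Orc2, Orc5, Pole, Rfc1 and Chaf1a.

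The number called depended on which Naive libraries entered. Without Naive 4 it was 9 of 47 (7.84% of all genes), without Naive 1 it was 11 of 47 (8.04% of all genes), without Naive 3 it was 13 of 47 (11.1% of all genes) and without Ag+Costim 5 it was 25 of 47 (12.5% of all genes). Within lane 3, where 2 Ag+Costim libraries met 5 Naive ones, 31 of 47 (14.1% of all genes) were called, with a median log2 fold change of 1.70. With lane as a term in the fit the median was 1.68 and 2 of 47 (1.49% of all genes) were called, namely Pold3 and Rpa1. Without Ag 1 and Naive 5 it was 46 of 47 (29.5% of all genes), with a median of 2.23. Naive 5 was the highest Naive library for nearly all of the set, so leaving it out raises the estimates by selection. All 47 log2 fold changes stayed above 0 in each of these 7 fits.

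Antigen alone against naive cells sets transferred cells given the peptide and control IgG beside cells that were not transferred. The peptide, the transfer and the lane cannot be told apart in this contrast. No replication gene passed the test, where 3.05% of all genes were called higher. At an unadjusted p under 0.05 there were 4 of 47, against 28.7% of all genes in either direction, and DESeq2 called 0 of 47 (7.34% of all genes). The log2 fold change was above 0 for 45 of 47 genes, with a range of -0.034 to 1.42 and a median of 0.85, beside 0.082 over all genes. The groups overlapped for all 47, where 1.76% of all genes had every Ag library above every Naive one. The 2 estimates below 0 were Orc5 at -0.017 ± 0.094 (FDR 0.917) and Rfc1, the large subunit of the clamp loader, at -0.034 ± 0.20 (FDR 0.924), and when library totals replaced TMM Cdt1 was below 0 as well. Without Naive 5 the test called 29 of 47 (12.6% of all genes), with a median log2 fold change of 1.42. Without both Ag 1 and Naive 5 it called 40 of 47 (19.3% of all genes), with a median of 1.61. Naive 5 was high and Ag 1 low for nearly all of the set, so leaving them out widens this difference by selection. Ag 1 and Ag 4 lay below every Naive library for 9 of the 47 genes (all genes, 14.3%), among them Cdt1, Mcm2, Pola2, Pold1 and Timeless.

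In the contrast of Ag+Costim against Ag, both groups were transferred and given the peptide, and the antibodies differed. The lanes, the recorded input and the share of reads counted also differed between these groups, and their part was not tested. Again no replication gene passed the test, where 0.0288% of all genes were called higher. At an unadjusted p under 0.05 there were 9 of 47, against 26.8% of all genes in either direction. The estimate was above 0 for 47 of 47, ranging from 0.061 for Orc5, which was below 0 with library totals in place of TMM, to 1.10, with a median of 0.64 (1.56-fold), beside -0.10 over all genes. For 14 of 47 genes every Ag+Costim library lay above every Ag library, and over all genes the share was 4.23%. These were Orc3, Cdt1, Mcm2, Mcm3, Mcm4, Mcm6, Pola1, Pold1, Pold3, Rfc1, Rpa1, Lig1, Timeless and Clspn. Since all 3 contrasts draw on shared libraries, the Ag+Costim vs Naive values are not independent of the other 2.

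Other procedures gave other numbers for Ag+Costim against Ag. DESeq2 called 5 of 47 (3.82% of all genes): Orc3, Cdt1, Pola1, Rfc1 and Rpa1. The limma voom test with sample quality weights called 46 of 47 (31.3% of all genes), with Orc5 the gene left out. Its median log2 fold change was 1.98, where the main edgeR fit gave 0.64, so the estimates moved as well as the calls. Within lane 2, Ag+Costim 1 to 3 against the 5 Ag libraries, edgeR called 0 of 47 (0% of all genes) with a median of 0.59. Without Ag 2 and Ag 5, the libraries of low recorded input, 38 of 47 (23.9% of all genes) were called and the median log2 fold change was 1.68. Leaving out Ag 2 alone gave 7 of 47 (5.33% of all genes) and Ag 5 alone 5 of 47 (4.17% of all genes). Ag 2 and Ag 5 had both the low input and the highest replication share of the Ag libraries, so leaving them out widens this difference by selection. Ag 3, with a recorded input of 9.4, had a share of 0.822%. The Ag+Costim libraries, with a recorded input of 10, had 1.05% to 1.26%. The part of the input was not tested. Without Ag 1 and Naive 5 the test called 0 of 47 (0% of all genes), with a median of 0.55. Ag 2 or Ag 5 exceeded every Ag+Costim library for 10 of 47 genes, where 43.7% of all genes tested showed this.

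**Figure D3:**
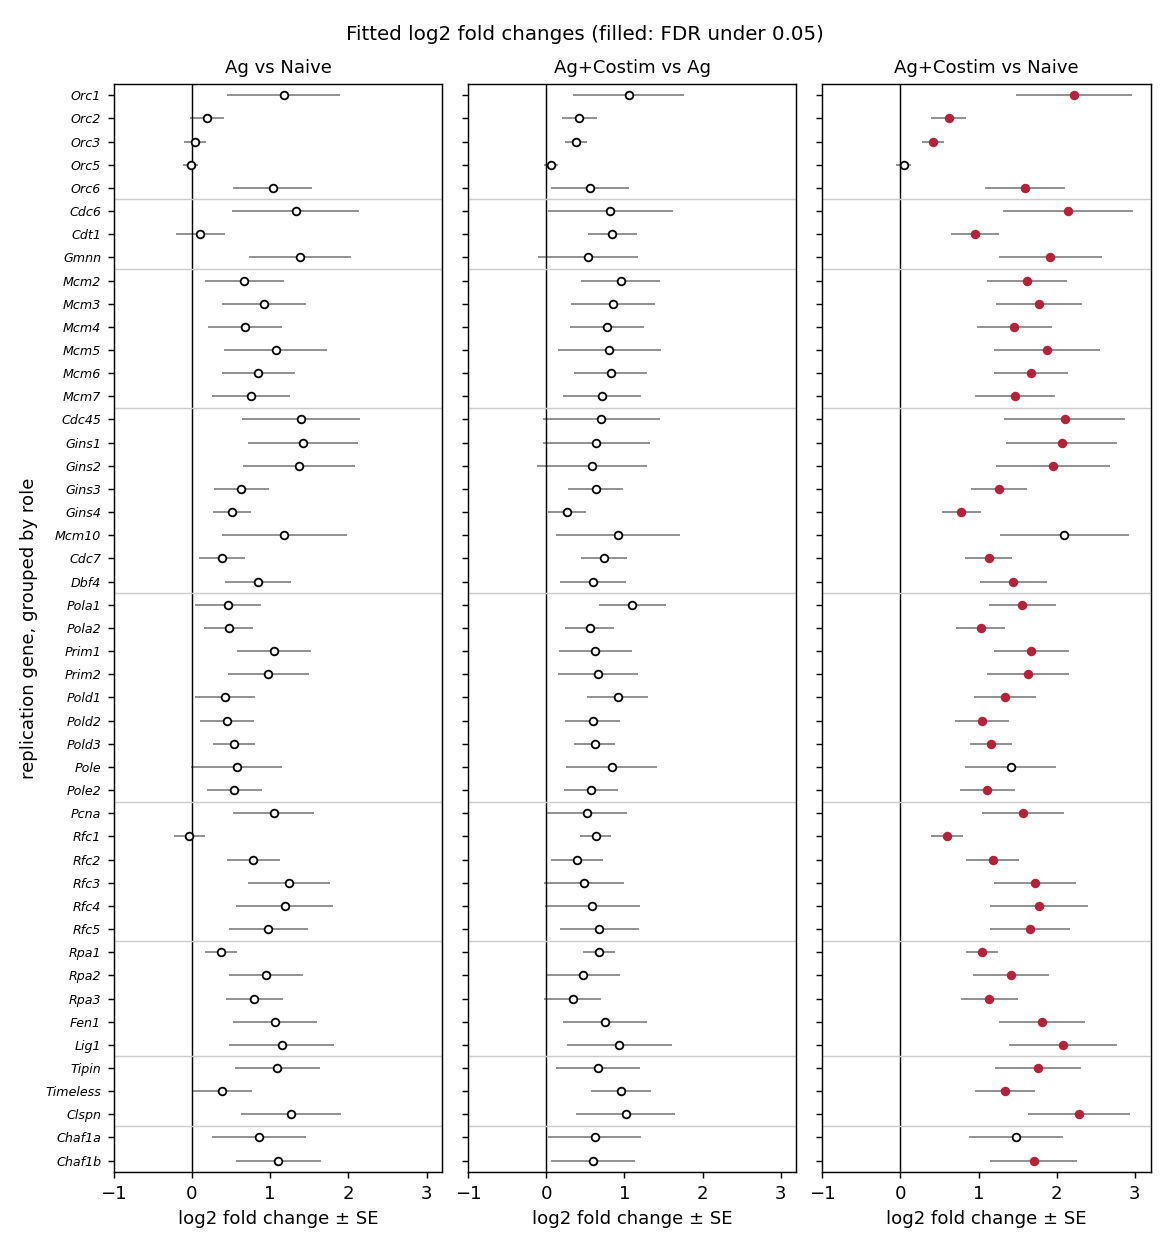
Fitted log2 fold change ± standard error of each of the 47 replication genes (rows, grouped by role) in the 3 comparisons, from 1 edgeR fit over 15 libraries. The 43 filled points, all in the Ag+Costim vs Naive panel, have an FDR under 0.05.

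Since the values of these genes moved together across the libraries, the DNA around their start sites was searched for the binding letters of E2F, the factor family best known for driving S-phase genes. RefSeq windows of 300 bases, from 250 before to 50 after a start, matched 38 of the 47 genes by symbol (45 windows). TTTCCCGC, TTTCGCGC, TTTGCCGC or TTTGGCGC, on either strand, occurred in 16 of 38 (42.1%), where 4.66% of the 10092 tested genes with a window and 2.60% of all 27025 symbols held 1 or more. The forms can overlap each other when read on both strands. The 16 genes were Cdc6, Cdt1, Clspn, Gins3, Lig1, Mcm3, Mcm5, Mcm6, Mcm7, Orc1, Orc3, Pola1, Pold1, Pold3, Pole2 and Rfc3. CCAAT was present in 57.9% of the 38 genes (43.2% of tested genes), TTTGAA in 18.4% (15.1%) and GGGCGG in 73.7% (66.2%), and the base composition of the windows was 59.1% G or C in the set and 59.9% in tested genes. The median log2 fold change of Ag+Costim over Naive was 1.62 for the 16 genes with an E2F match (0.42 to 2.28) and 1.46 for the 22 without (0.044 to 2.1). A match is a description of the letters and no evidence of binding in these cells.

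To show these letters, 80 bases around the match nearest the start are printed 5′ to 3′ on the gene's strand for the 4 MCM genes with a match and for the 2 genes with the steepest rise over Naive, with each match in capitals. For Orc5, the least changed gene, whose window held no match, 80 bases across the start are given. Sequences are from RefSeq.
Mcm3 (GRCm38.p6, chr1:20820283-20820362, minus strand): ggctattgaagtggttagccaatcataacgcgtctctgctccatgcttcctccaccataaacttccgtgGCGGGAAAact
Mcm5 (GRCm38.p6, chr8:75109324-75109403, plus strand): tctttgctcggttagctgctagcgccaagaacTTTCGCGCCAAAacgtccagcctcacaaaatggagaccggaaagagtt
Mcm6 (GRCm38.p6, chr1:128359709-128359788, minus strand): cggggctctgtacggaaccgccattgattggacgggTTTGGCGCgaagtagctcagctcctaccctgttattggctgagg
Mcm7 (GRCm38.p6, chr5:138171854-138171933, minus strand): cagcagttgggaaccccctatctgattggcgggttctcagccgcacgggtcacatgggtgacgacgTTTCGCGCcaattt
Orc1 (GRCm38.p6, chr4:108579391-108579470, plus strand): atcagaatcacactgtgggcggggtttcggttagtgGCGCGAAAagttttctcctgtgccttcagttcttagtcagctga
Clspn (GRCm38.p6, chr4:126556930-126557009, plus strand): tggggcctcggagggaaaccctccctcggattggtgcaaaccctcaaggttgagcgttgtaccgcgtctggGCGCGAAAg
Orc5 (GRCm38.p6, chr5:22550309-22550388, minus strand): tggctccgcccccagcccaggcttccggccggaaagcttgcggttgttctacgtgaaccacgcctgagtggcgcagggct
In Mcm3, Mcm7 and Clspn the nearest match began 19, 16 and 21 bases downstream of the start, and in Orc1, Mcm6 and Mcm5 27, 47 and 149 bases upstream. The stretch of Mcm5 holds 2 overlapping matches.

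Origin recognition held the most constant gene of the set. Orc5 measured 65.1, 59.5, 71.2, 74.5 and 57.4 CPM in Naive 1 to 5, 62.8, 70.0, 65.3, 58.1 and 67.7 CPM in Ag 1 to 5 and 65.2, 66.8, 64.4, 69.8 and 71.7 CPM in Ag+Costim 1 to 5. The 3 groups overlapped, and the standard deviation of its log2 CPM over the 15 libraries, 0.111, was lower than in all but 0.213% of genes tested. Orc2 and Orc3, like Orc5 members of the ORC core, had values of 0.442 and 0.283. Orc1 measured 5.89, 11.8, 3.17, 3.96 and 32.1 CPM in Naive 1 to 5, 2.84, 38.2, 33.1, 5.37 and 48.3 CPM in Ag 1 to 5 and 49.0, 49.0, 39.2, 68.2 and 59.7 CPM in Ag+Costim 1 to 5. Its lowest library was Ag 1, it varied 24-fold over the 15 libraries, and both contrasts that involve Ag fell short of the threshold, at 1.17 ± 0.72 (FDR 0.280) and 1.05 ± 0.72 (FDR 0.351). Orc6 measured 27.4, 55.2, 25.7, 24.9 and 101 CPM in Naive 1 to 5, 30.7, 159.5, 92.3, 29.8 and 166 CPM in Ag 1 to 5 and 135, 134, 126, 171 and 142 CPM in Ag+Costim 1 to 5. Orc6, which is loosely attached to the core, had the highest level per kilobase of the ORC genes at 112 ± 14.6 CPM per kilobase in Ag+Costim, where Orc1 had 18 ± 3.59, and its log2 fold change over Naive was 1.60 ± 0.51 (FDR 0.0247).

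The licensing antagonists had the same order of libraries within Ag, but a different order across the groups. Cdt1 measured 51.1, 56.0, 53.9, 46.1 and 77.2 CPM in Naive 1 to 5, 26.7, 92.1, 67.1, 27.8 and 92.6 CPM in Ag 1 to 5 and 100.2, 109, 110.2, 114 and 118 CPM in Ag+Costim 1 to 5. Ag 1 and Ag 4 were below all Naive libraries, and every Ag+Costim library was above every library of the other groups. Gmnn measured 23.2, 69.2, 17.9, 17.4 and 150.1 CPM in Naive 1 to 5, 36.7, 243, 154, 37.7 and 254 CPM in Ag 1 to 5 and 204, 198, 195, 239 and 214 CPM in Ag+Costim 1 to 5. For this inhibitor of Cdt1 the order across the groups was different, since Ag 2 and Ag 5 were the highest of all 15 libraries and Naive 1, 3 and 4 the lowest. Against Naive, Cdt1 rose by 0.96 ± 0.31 (FDR 0.0261) and Gmnn by 1.92 ± 0.66 (FDR 0.0322) on the log2 scale in Ag+Costim, and in Ag the estimates were 0.11 ± 0.31 (FDR 0.834) and 1.39 ± 0.65 (FDR 0.177). Cdc6, the ATPase that works with Cdt1, had the widest range of the 47 genes, 36.2-fold from Naive 3 to Ag+Costim 4, and its log2 fold change of 2.15 over Naive passed the threshold narrowly (FDR 0.0487).

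The log2 ratio of Cdt1 to Gmnn, on levels per kilobase, was -0.024, -1.51, 0.41, 0.22 and -2.16 in Naive 1 to 5. It was -1.62, -2.67, -2.29, -1.55 and -2.63 in Ag 1 to 5 and -2.26, -2.08, -2.03, -2.25 and -2.05 in Ag+Costim 1 to 5. Naive 1, 3 and 4 stood near an equal level of the 2 genes. Naive 5 lay within the range of the transferred cells, and Naive 2 (-1.51) just above the highest of them (Ag 4, -1.55). The Ag+Costim values were the most tightly grouped, with a mean of -2.13 ± 0.11 (SD, n = 5). The ratio was lower in Ag than in Naive by a log2 difference of -1.54 and in Ag+Costim than in Naive by -1.52, each with an exact two-sided permutation p of 0.0317 (adjusted over 3 comparisons 0.0476; the smallest p for 5 against 5 is 0.00794). Between Ag+Costim and Ag the difference was 0.019 (exact permutation p = 0.952). Within lane 3 the Ag+Costim to Naive difference was -1.54 (exact permutation p = 0.190, where 2 against 5 cannot go below 0.0952), and within lane 2 the Ag+Costim to Ag difference was 0.031 (exact permutation p = 0.964). The adjusted p rose above 0.05 when any of Naive 1 to 4, or Ag 2, 3 or 5, was left out of the Ag to Naive comparison, and when any of Naive 1 to 4 or any Ag+Costim library was left out of the Ag+Costim to Naive comparison.

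**Figure D4:**
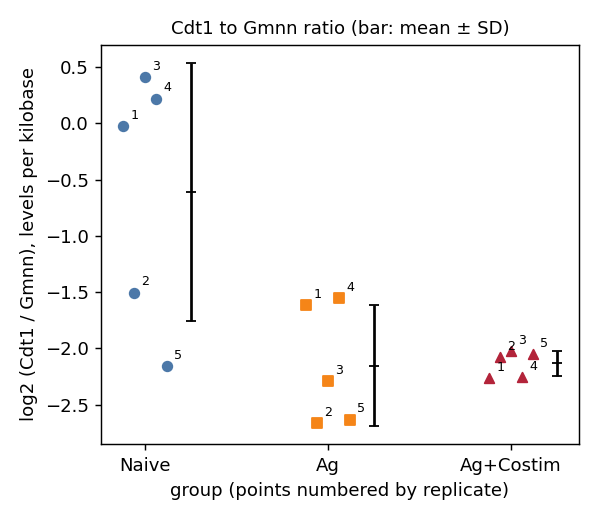
Log2 ratio of Cdt1 to Gmnn on levels per kilobase, 1 point per library numbered by replicate, with the mean ± SD of each group (n = 5) beside the points. Naive spreads from -2.16 to 0.41, and the Ag+Costim libraries lie between -2.26 and -2.03.

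The 6 MCM genes, which encode the subunits of the ring-shaped helicase, lie on 5 chromosomes (GENCODE M21, GRCm38): Mcm2 (chr6:88883474-88898780, minus strand), Mcm3 (chr1:20802968-20820312, minus strand), Mcm4 (chr16:15623897-15637400, minus strand), Mcm5 (chr8:75109569-75128439, plus strand), Mcm6 (chr1:128331590-128359664, minus strand) and Mcm7 (chr5:138164583-138172422, minus strand). Mcm2 measured 111, 189, 121, 103 and 454 CPM in Naive 1 to 5, 92.4, 429.7, 448, 96.1 and 489.9 CPM in Ag 1 to 5 and 552, 571, 507, 735 and 643 CPM in Ag+Costim 1 to 5. Mcm3 measured 125, 232, 119, 97.7 and 567 CPM in Naive 1 to 5, 128, 658, 551, 136 and 693 CPM in Ag 1 to 5 and 697, 728, 721, 917 and 843 CPM in Ag+Costim 1 to 5. For both, Naive 5 lay beside the high Ag libraries and all Ag+Costim libraries were above all others. Mcm4 measured 123, 248, 152, 107 and 547 CPM in Naive 1 to 5, 142, 541, 523, 147 and 535 CPM in Ag 1 to 5 and 567, 598, 632, 738 and 699 CPM in Ag+Costim 1 to 5. Mcm5 measured 111, 277, 87.5, 74.7 and 676 CPM in Naive 1 to 5, 114, 774, 639.6, 117 and 932 CPM in Ag 1 to 5 and 807, 810.0, 859, 1029.8 and 1001 CPM in Ag+Costim 1 to 5. In Mcm5 the span over the libraries was the widest of the 6, 13.8-fold, and Ag 5 fell among the Ag+Costim libraries. Mcm6 measured 234, 418, 238, 182 and 911 CPM in Naive 1 to 5, 276, 1045, 898, 289 and 1063 CPM in Ag 1 to 5 and 1164, 1177, 1156, 1465 and 1364 CPM in Ag+Costim 1 to 5. Mcm7 measured 121, 208, 106, 91.8 and 413 CPM in Naive 1 to 5, 96.8, 498, 371, 98.1 and 522 CPM in Ag 1 to 5 and 466, 478, 524, 552 and 583 CPM in Ag+Costim 1 to 5. For Mcm6 every Ag+Costim library was above every other library, and for Mcm7 Ag 2 and Ag 5 overlapped the Ag+Costim range.

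All 6 rose in Ag+Costim over Naive, from 1.46 ± 0.48 (FDR 0.0275) for Mcm4 to 1.88 ± 0.68 (FDR 0.0374) for Mcm5. The remaining estimates were 1.62 ± 0.52 (FDR 0.0245) for Mcm2, 1.78 ± 0.55 (FDR 0.0223) for Mcm3, 1.67 ± 0.47 (FDR 0.0162) for Mcm6 and 1.47 ± 0.51 (FDR 0.0322) for Mcm7, and the 6 estimates differed by less than their standard errors. Against Ag the 6 estimates ran from 0.71 for Mcm7 to 0.95 for Mcm2, with FDR values of 0.242 to 0.438. From Naive to Ag they ran from 0.67 to 1.07, with FDR values of 0.231 to 0.370.

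**Figure D5:**
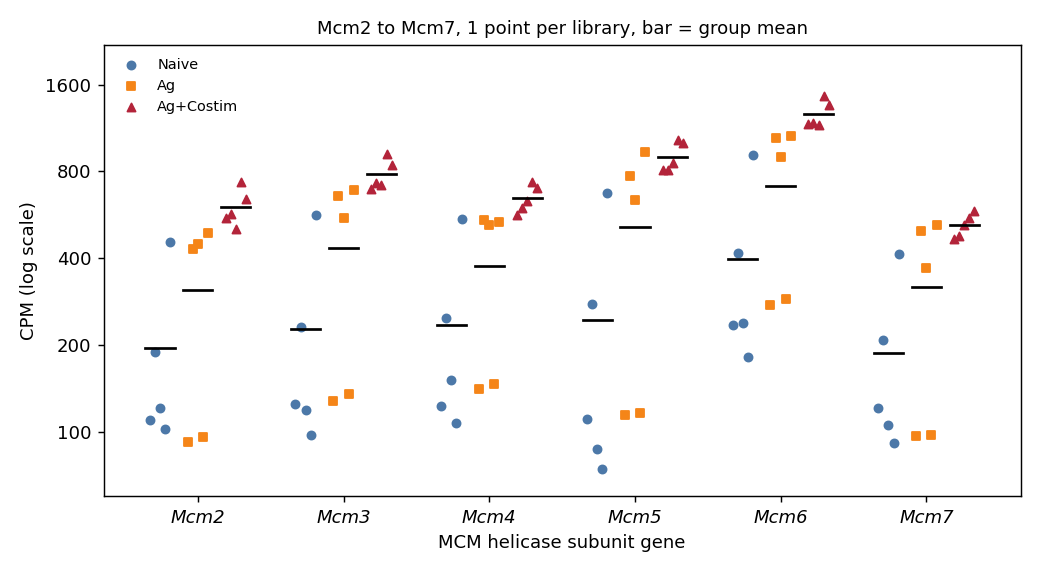
CPM on a log scale of Mcm2 to Mcm7, with 1 point per library in the order of replicate number and a bar at each group mean. In each gene 2 Ag squares lie near the low Naive circles and 1 Naive circle lies beside the high Ag squares, while the Ag+Costim triangles keep close together.

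Although 1 copy of each subunit makes up the ring, their RNA levels were unequal. Per kilobase of transcript, Mcm6 made up 28% ± 1.13 (SD, n = 5) of the summed level of the 6 genes in Naive cells, 29.4% ± 3.69 after antigen and 27.9% ± 0.560 after antigen with costimulation. Mcm5 followed with 20.4% ± 0.568 in Ag+Costim and Mcm3 with 16.8% ± 0.242. Mcm4 (11.8% ± 0.329), Mcm2 (11.6% ± 0.698) and Mcm7 (11.6% ± 0.665) came last, and their library ranges overlapped, so these 3 have no order beyond their spread. The share of Mcm5 varied most in Naive and in Ag, with SDs of 4.15 and 4.44 percentage points, and ran from 10.9% to 19.9% over the Naive libraries and 19.6% to 21% over the Ag+Costim libraries.

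Of the 8 helicase activators, 7 rose in Ag+Costim over Naive, all but Mcm10, and the 8 log2 fold changes ran from 0.78 to 2.1. Mcm10 measured 11, 37.3, 6.08, 5.84 and 108 CPM in Naive 1 to 5, 13.4, 128, 119.8, 14.0 and 106 CPM in Ag 1 to 5 and 128, 128, 128, 178 and 156 CPM in Ag+Costim 1 to 5. Naive 5 was 18.5 times the lowest Naive library, and the 5 Ag+Costim libraries were above all Naive ones although the FDR was 0.0504. Gins4 measured 53.2, 71.7, 54.3, 49.1 and 82.6 CPM in Naive 1 to 5, 53.5, 112, 83.6, 53.6 and 139.9 CPM in Ag 1 to 5 and 109, 102, 102, 117 and 105 CPM in Ag+Costim 1 to 5. Gins4, 1 of the 4 GINS subunits, had the highest level per kilobase of the activators over the 15 libraries (63.3) and the smallest estimate in both contrasts with Ag+Costim, 0.78 ± 0.24 (FDR 0.0227) over Naive and 0.27 ± 0.24 (FDR 0.478) over Ag. Its partners Gins1 and Gins2 had estimates of 2.06 and 1.96 over Naive and Gins3 of 1.26, and the differences among the 4 subunits were not tested. Cdc45, the remaining component of the active helicase, was at 2.1, the kinase Cdc7 at 1.13 and its activator Dbf4 at 1.45.

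Among the 9 polymerase and primase genes, 8 rose over Naive in Ag+Costim and Pole, the catalytic subunit of polymerase ε, did not pass, and the 9 log2 fold changes ran from 1.03 to 1.68. Pola1 measured 24.9, 35.9, 20.4, 17.9 and 89.0 CPM in Naive 1 to 5, 25.8, 88.1, 71.4, 33.3 and 40.2 CPM in Ag 1 to 5 and 115, 97.5, 98.3, 124 and 120.0 CPM in Ag+Costim 1 to 5. Ag 5, high for most genes of the set, was low for this catalytic subunit of polymerase α, and all Ag+Costim libraries lay above all others. The estimate over Ag, 1.10 ± 0.43 (FDR 0.124), was the largest of the 47 genes. Pola2 measured 70.6, 93.9, 66.4, 68.5 and 135 CPM in Naive 1 to 5, 57.8, 167, 129, 58.9 and 189 CPM in Ag 1 to 5 and 162, 161, 166, 202 and 194 CPM in Ag+Costim 1 to 5. For Pola2, its accessory subunit, Ag 5 was instead the highest Ag library and lay within the Ag+Costim range, and the estimate over Ag was 0.56 ± 0.31 (FDR 0.266). Prim1 and Prim2, the primase subunits, rose by 1.68 and 1.64 over Naive, the polymerase δ genes Pold1, Pold2 and Pold3 by 1.34, 1.04 and 1.16, and Pole2, the second subunit of polymerase ε, by 1.11.

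All 6 clamp and clamp loader genes rose over Naive in Ag+Costim. Pcna measured 109, 223, 114, 98.0 and 411 CPM in Naive 1 to 5, 119, 629, 419, 108 and 697 CPM in Ag 1 to 5 and 553, 536, 527, 638 and 587 CPM in Ag+Costim 1 to 5. Pcna, the sliding clamp, was highest in Ag 5, and per kilobase it was among the most abundant of the 47 genes, at 378 ± 30.1 in Ag+Costim. It rose by 1.57 ± 0.52 (FDR 0.0282) on the log2 scale over Naive, and its estimate over Ag was 0.53 ± 0.51 (FDR 0.518). Rfc1 measured 81.6, 98.7, 84.4, 77.5 and 139 CPM in Naive 1 to 5, 72.2, 132, 105, 63.3 and 97.8 CPM in Ag 1 to 5 and 135, 137, 133, 171 and 152 CPM in Ag+Costim 1 to 5. Naive 5 exceeded 3 of the 5 Ag+Costim libraries, while Ag 1 and Ag 4 were again the lowest. Rfc5 measured 46.5, 101, 47.4, 44.0 and 186 CPM in Naive 1 to 5, 52.5, 269, 187, 52.3 and 277 CPM in Ag 1 to 5 and 262, 261, 247, 302 and 271 CPM in Ag+Costim 1 to 5. The 4 small loader subunits Rfc2 to Rfc5 rose by 1.18, 1.72, 1.78 and 1.66 over Naive and Rfc1, the large subunit, by 0.60 ± 0.20 (FDR 0.0295). Over Ag the 2 were close, with Rfc1 at 0.63 ± 0.20 (FDR 0.0877) and Rfc5 at 0.68 ± 0.50 (FDR 0.390), and neither passed the threshold.

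The 5 genes of strand protection and maturation also rose over Naive in Ag+Costim. Rpa2 measured 83.2, 146, 72.6, 62.9 and 241 CPM in Naive 1 to 5, 73.3, 373, 264, 72.8 and 381 CPM in Ag 1 to 5 and 312, 321, 312, 347 and 321 CPM in Ag+Costim 1 to 5. In Rpa2, a subunit of the single-strand binding complex RPA, Ag 2 and Ag 5 were above every Ag+Costim library. Lig1 measured 42.4, 99.4, 23.9, 21.1 and 249 CPM in Naive 1 to 5, 46.4, 280.0, 275, 50.2 and 314 CPM in Ag 1 to 5 and 326, 342, 365, 418 and 397 CPM in Ag+Costim 1 to 5. For this ligase, which seals Okazaki fragments, every Ag+Costim library was above every other library, with 2.08 ± 0.69 (FDR 0.0282) over Naive and 0.94 ± 0.67 (FDR 0.377) over Ag. Rpa1, the large RPA subunit, had the smallest FDR of the 47 genes over Naive, 0.00428, at a log2 fold change of 1.05. Rpa3 was at 1.14 and the flap nuclease Fen1 at 1.81.

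The 3 fork protection genes rose over Naive in Ag+Costim. Tipin measured 48.5, 106, 48.9, 43.2 and 202 CPM in Naive 1 to 5, 53.4, 313, 212, 53.0 and 326 CPM in Ag 1 to 5 and 287, 283, 286, 355 and 306 CPM in Ag+Costim 1 to 5. Tipin, the partner of Timeless, was the most abundant of the 3 per kilobase, at 244 ± 23.7 in Ag+Costim, and Ag 2 and Ag 5 lay within the Ag+Costim range. Clspn measured 6.53, 17.0, 4.48, 3.89 and 42.6 CPM in Naive 1 to 5, 10.9, 61.2, 42.0, 11 and 53.9 CPM in Ag 1 to 5 and 77.1, 71.4, 70.1, 73.1 and 70.5 CPM in Ag+Costim 1 to 5. The Ag+Costim values of Clspn had the lowest coefficient of variation of the 47 genes in that group, 3.91%, and all lay above all other libraries, with an estimate over Ag of 1.02 ± 0.63 (FDR 0.310). Timeless was at 1.34 over Naive. Chaf1b measured 33.3, 62.3, 30.5, 25.6 and 122 CPM in Naive 1 to 5, 30.9, 206, 129.8, 30.6 and 191 CPM in Ag 1 to 5 and 169, 174, 158, 205 and 187 CPM in Ag+Costim 1 to 5. Chaf1a measured 21.6, 51.8, 12, 13.8 and 120.2 CPM in Naive 1 to 5, 26.9, 132, 105, 28.7 and 105 CPM in Ag 1 to 5 and 100.2, 122, 129.9, 123 and 136 CPM in Ag+Costim 1 to 5. Of these 2 subunits of the histone chaperone CAF-1, Chaf1b rose by 1.70 ± 0.55 (FDR 0.0257) over Naive, and Chaf1a did not pass, with Naive 5 inside the Ag+Costim range and an FDR of 0.0589.

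Per kilobase, the mean over the 15 libraries was highest for Mcm6 (267), Pcna (255), Mcm5 (192), Mcm3 (158), Tipin (157) and Gmnn (143), and lowest for Pole (10.1), Orc1 (10.3) and Clspn (10.6). In Ag+Costim the leading 6 measured 429 ± 48.0, 378 ± 30.1, 313 ± 38.7, 258 ± 31.4, 244 ± 23.7 and 219 ± 17.9 (SD, n = 5), and Mcm3 and Tipin differed by less than either SD. Coding transcripts held most of the set's counts, 96.0% ± 0.592 in Ag+Costim against 94.0% ± 1.29 for Ag and 91.9% ± 2.1 for Naive. Over the 15 libraries, 30 of 47 genes had a standard deviation of log2 CPM at or above the 90th percentile of all genes tested, led by Cdc6 (1.84), Mcm10 (1.78) and Cdc45 (1.71).

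Genes that act beside the replication machinery were read from 6 further lists. For reference, 21% of all genes were called higher in Ag+Costim vs Naive and 23.6% lower. In Ag+Costim over Naive, 12 of 24 rose and 2 fell among further replisome genes (median log2 fold change 0.82), the fallen being Pold4, the small polymerase δ subunit, at -0.67 ± 0.24 (FDR 0.0390), and the topoisomerase gene Top2b at -1.27 ± 0.22 (FDR 0.00272). Top2a, also a topoisomerase gene, was among the 12 that rose, at 1.97 ± 0.76 (FDR 0.0476). Its mean was 842 CPM in Ag+Costim and 215 CPM in Naive, where Top2b had 121 and 292 CPM. 8 of 10 deoxynucleotide supply genes rose and 1 fell (median 1.80), with Rrm1, the large subunit of ribonucleotide reductase, at 2.0 ± 0.68 (FDR 0.0307) and Rrm2b, its p53-inducible small subunit, at -0.97 ± 0.23 (FDR 0.00826). In the list of S-phase cyclins, kinases and their regulators 5 of 9 rose and 1 fell (median 1.67), with Ccne2, a cyclin E, at 2.19 ± 0.72 (FDR 0.0276) and Cdkn1b, the inhibitor p27, at -1.33 ± 0.42 (FDR 0.0247). Another inhibitor gene, Cdkn1a, was among those that rose, at 2.06 ± 0.80 (FDR 0.0495), with means of 5.26 CPM in Ag+Costim and 1.27 CPM in Naive. Cdk1, Cdk2 and Wee1 also rose, and Ccne1 (FDR 0.0583), Ccna2 (FDR 0.0702) and Cdc25a (FDR 0.0851) did not pass. In the replication checkpoint 2 of 7 rose and 1 fell (median 0.13), shares near those of all genes, with the kinase genes Chek1 at 1.93 ± 0.71 (FDR 0.0409) and Atr at -0.75 ± 0.28 (FDR 0.0443). Among mitosis genes 22 of 24 rose and 0 fell (median 2.19), with Mki67, the gene of the proliferation antigen Ki-67, at 2.14 ± 0.72 (FDR 0.0291), the checkpoint kinase gene Bub1 at 2.29 ± 0.80 (FDR 0.0338) and the centromeric histone gene Cenpa at 1.85 ± 0.52 (FDR 0.0164).

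In the list of E2F and pocket proteins 6 of 13 rose and 2 fell (median 0.91). E2f2 at 1.40 ± 0.44 (FDR 0.0234), E2f3 at 1.5 ± 0.34 (FDR 0.00742), E2f4 at 0.91 ± 0.23 (FDR 0.0117) and E2f6 at 0.65 ± 0.17 (FDR 0.0135) rose and E2f5 at -0.63 ± 0.21 (FDR 0.0294) fell. E2f1 at 1.19 ± 0.53 (FDR 0.0775), E2f7 at 1.88 ± 0.83 (FDR 0.0743) and E2f8 at 1.94 ± 0.87 (FDR 0.0780) did not pass the test. Of the genes of E2F dimerisation partners, Tfdp1 rose at 1.61 ± 0.54 (FDR 0.0289) and Tfdp2 fell at -1.09 ± 0.36 (FDR 0.0269). Tfdp1 measured 285 ± 25.6 CPM (SD, n = 5) in Ag+Costim, where Tfdp2 measured 8.83 ± 1.47. Of the pocket protein genes, Rbl1 rose at 0.79 ± 0.21 (FDR 0.0127), and Rb1 (FDR 0.526) and Rbl2 (FDR 0.0814) did not pass. E2f4, which acts with pocket proteins as a repressor in resting cells, measured 226 ± 8.38 CPM (SD, n = 5) in Ag+Costim and 121 ± 30.4 in Naive, and E2f1 measured 14.0 ± 4.07 and 6.15 ± 6.53.

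In Ag+Costim over Ag none of the genes of these 6 lists passed the test, and their medians were 0.59 for further replisome, 0.52 for deoxynucleotide supply, 0.45 for S-phase cyclins and kinases, 0.18 for the checkpoint, 0.84 for mitosis and 0.62 for the E2F list, beside -0.10 for all genes and 0.64 for the 47 replication genes. The largest and smallest estimates were Dna2 (1.09) and Pold4 (-0.89), Rrm1 (0.94) and Rrm2b (-0.67), Ccne2 (1.23) and Cdkn1b (-0.78), Chek1 (0.79) and Atr (-0.14), Bub1 (1.07) and Cenpa (0.39), and E2f8 (1.19) and Tfdp2 (-0.52). In Ag over Naive, 1 gene of the 6 lists was called, Top2b at -1.0 ± 0.22 (FDR 0.0189), and the medians ran from -0.071 for the checkpoint to 1.31 for mitosis.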

How the data were processed

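RNA of 15 libraries of sorted mouse CD8+ T cells (Naive, Ag and Ag+Costim, 5 each) had been amplified with a full-length poly(A) kit that does not mark strand and read as single reads of 50 bases. The authors deposited estimated counts per gene and per transcript, written as whole numbers, and their processing notes name HISAT2 2.1.0, SAMtools 1.9, StringTie 2.1.0, R 4.0.5, DESeq2 1.30.1 and the mm10 build. A deposited lane sheet gave the count of sequenced reads, the percent aligned, the lane and the library input. A deposited FPKM table was not used, and in it the columns of Ag 1 and Naive 5 were identical.

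Gene entries were matched by identifier to GENCODE M21 (GRCm38), and 55536 of 81881 matched. The unmatched entries held 0.0818% of counts. Counts were fitted with edgeR 4.0.16 in R 4.3.3 (filterByExpr, TMM, 1 coefficient per group, robust glmQLFit, glmQLFTest) over all 15 libraries, two-sided, with Benjamini-Hochberg adjustment over 17366 genes and a threshold of 0.05. The script was tested on simulated data. With the spread of the real data, the Ag+Costim vs Ag test recovered 44 of 100 genes changed by a log2 of 1. At a log2 of 2 it recovered 89 of 100, so a gene not called may still have changed. CPM are counts per 1000000 of TMM-scaled totals, and levels per kilobase divide each transcript's count by its annotated length before summing. The Cdt1 to Gmnn ratio was compared by exact permutation over libraries (SciPy 1.17.1). Alternatives used DESeq2 1.42.0, limma 3.58.1, other scalings and filters, lane, the replicate number and fewer libraries. Depth per library ran from 4865952 to 25280667 counts, which limits the precision of low genes most in Ag 3.

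The 47 genes and all lists were chosen with earlier results of these data known. Values in every library are given for the gene of each role with the highest level per kilobase and the one with the largest change in Ag+Costim vs Ag, and for Mcm2 to Mcm7, Cdt1 and Gmnn. Of the other lists, the members with the largest and smallest change in Ag+Costim vs Ag, E2f1 to E2f8 and Mki67 are named. Other genes named with values, such as Cdc6, Prim1 or Top2b, were chosen after their values were seen.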

Additional observations from a re-analysis of the deposited data

Results flagged for a closer look

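In 4 of 78 sets of 5 library values (24 genes, the replication share of counts and the Cdt1 to Gmnn ratio, each in 3 groups), 1 library lay farther from its neighbours than Dixon's 95% critical value allows, and chance flags about 1 set in 20. Mcm2 in Naive 5 read 454 CPM, where the other 4 libraries of the group spanned 103 to 189 CPM. Mcm3 in Naive 5 read 567 CPM, where the other 4 libraries of the group spanned 97.7 to 232 CPM. Pola1 in Naive 5 read 89.0 CPM, where the other 4 libraries of the group spanned 17.9 to 35.9 CPM. Rpa2 in Ag+Costim 4 read 347 CPM, where the other 4 libraries of the group spanned 312 to 321 CPM. The 3 flags of Naive 5 belong to genes that move together across libraries and do not count separately.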

How the results depend on the processing

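Calls depended strongly on single libraries, and the cause was not tested. In Ag vs Naive the number of replication genes called was 0, and it was 2 with limma voom (Clspn, and Cdt1 with a negative sign, where 23.1% of all genes were called in either direction), 23 without Ag 3 and Naive 5 (all genes, 22.9%), 40 without Ag 1 and Naive 5 (all genes, 31.2%) and 0 to 29 when single libraries were left out, the high end without Naive 5. In Ag+Costim vs Ag it was 0, and it was 5 with DESeq2, 46 with limma voom, 2 without Ag 3 and Naive 5 (Pola1 and Rfc1; all genes, 5.73%), 38 without Ag 2 and Ag 5 and 0 to 7 without single libraries. In Ag+Costim vs Naive it was 43, and it was 2 with lane as a term and 9 to 46 without single libraries, the low end without Naive 4. The fits without Ag 2 and Ag 5 or without Ag 1 and Naive 5, and the ratio within lanes, were chosen after seeing the data. Leaving out libraries that were high or low in their group for most of the set moves the estimates by selection. All other alternatives stayed within 1.5 times these counts.

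Library totals in place of TMM moved the all-gene median of the log2 fold change by -0.15 in Ag+Costim vs Naive, and by -0.083 and -0.080 in Ag vs Naive and Ag+Costim vs Ag. Log2 fold changes near 0 changed sign. In Ag vs Naive, limma voom gave -0.049 for Orc1, -0.71 for Cdt1, -0.050 for Mcm2 and -0.15 for Pola2. The lane term gave 0.095 for Orc5 and 0.22 for Rfc1, and library totals -0.020 for Cdt1. Without Ag 2 and Ag 5 the values were -0.021 for Orc6, -0.63 for Cdt1, -0.068 for Mcm2, -0.16 for Mcm7, -0.050 for Gins4 and -0.20 for Pola2, and Rfc1 was 0.15 without Ag 3 and Naive 5 and 0.20 without Ag 1 and Naive 5. Leaving out single libraries gave -0.063 to 0.032 for Orc5, -0.12 to 0.30 for Cdt1 and -0.21 to 0.14 for Rfc1, with sign changes without Ag 4, Naive 3 or Naive 4, without Ag 2 or Ag 5, and without Ag 1, Ag 4 or Naive 5 in turn. In Ag+Costim vs Ag, Orc5 was -0.0093 with library totals and -0.015 with at least 10 CPM in at least 5 libraries. In Ag+Costim vs Naive, Orc5 was -0.019 with limma voom, -0.12 with library totals, -0.033 with that filter, -0.014 with only the 10 libraries compared and -0.0011 to 0.13 without single libraries, below 0 without Naive 2. Over the 24 genes with values in every library, 478, 522 and 418 alternative values in the 3 comparisons kept their sign and their side of the threshold, 50, 52 and 18 gained a call and 111 in Ag+Costim vs Naive lost it.

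The difference in the Cdt1 to Gmnn log2 ratio ran from -1.93 to -1.29 in Ag vs Naive, -0.11 to 0.17 in Ag+Costim vs Ag and -1.91 to -1.27 in Ag+Costim vs Naive when single libraries were left out, and on coding transcripts alone it was -0.046 in Ag+Costim vs Ag. Within lane 3 it was -1.54 in Ag+Costim vs Naive, not past the threshold.

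Whether the replicate numbers pair the libraries could not be decided from 5 pairs per comparison. In Ag vs Naive the correlations were 0.42, -0.12, -0.32, 0.47 and 0.41 for numbers 1 to 5. Same-numbered libraries correlated in their deviations from the group means at -0.32 to 0.47 in Ag vs Naive, -0.25 to 0.17 in Ag+Costim vs Ag and -0.16 to 0.12 in Ag+Costim vs Naive, and not every library correlated best with its own number. With the replicate block the counts of calls were 0, 0 and 46 and Cdt1 in Ag vs Naive was -0.0072. At an unadjusted p under 0.05 there were 24 of 47 in Ag vs Naive with the block (edgeR), against 4 of 47 without it. In the fit with the block, 9.56% of all genes were called in either direction in Ag vs Naive. With sign flips within numbered pairs as the replicate block, the ratio differences of -1.54 and -1.52 had an adjusted exact permutation p of 0.188, a test that 5 pairs cannot bring under 0.05.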
